A study of Mus musculus with 5 samples.

Results

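The genes described here are 30 regulators of programmed cell death: members of the BCL2 family, caspases, inhibitor of apoptosis proteins, death factors held in mitochondria, death-receptor adaptors and the DNA fragmentation factor. They were taken by name as listed, with no filter on measured values, though earlier results of these data were known when the list was chosen. All 30 were found among the 39179 genes of the deposited count table. RNA was measured by sequencing in cells of C57BL/6 mouse fetal liver at 14.5 days post conception, sorted for TER119, a surface protein of maturing red cell precursors. The 3 control libraries had the genotype Csnk2b+/+ Vav+/Cre and the 2 KO libraries the genotype Csnk2bfl/fl Vav+/Cre. All 5 thus carried the Cre transgene, driven by the Vav1 promoter in blood-forming cells, and the groups differed in the floxed alleles of Csnk2b, which encodes the regulatory subunit of the protein kinase CK2. The sort left out dead cells and debris by light scatter, so cells that had already died are under-represented in all 5 libraries.

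Apoptosis runs along a pair of routes that meet at the caspases, proteases that dismantle the cell. In the mitochondrial route, BH3-only proteins sense stress and either block the survival proteins of the BCL2 family or switch on BAX and BAK, which open the outer mitochondrial membrane and release cytochrome c, SMAC and HTRA2. In the receptor route, FADD and TRADD connect death receptors to caspase 8 or to RIPK1. Red cell precursors depend on erythropoietin for survival, and BCL-XL, the product of Bcl2l1, is the best known survival protein of their late stages. CK2 is known to phosphorylate apoptosis proteins, BID among them. Phosphorylation and caspase cleavage are not measured by RNA counts.

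Totals were 13187094 to 15366021 counts per library, and levels are given as CPM (counts scaled to the effective library size), where 1 CPM stood for 13 to 15.5 counts. Across genes, the log2 CPM values of any pair of libraries correlated at 0.985 or more, lowest where a control was set against a KO library. Csnk2b, the targeted gene, had levels of 186, 186 and 169 CPM in the controls (replicates 1, 2 and 3, the order kept throughout) against 112 and 95.6 CPM in the KO libraries (replicates 1 and 2). Control replicate 3 stood apart in holding 454 counts of the Y-linked gene Eif2s3y beside Xist at 547 CPM, while the other 4 libraries held 0 counts of Eif2s3y and Xist at 788 to 1026 CPM. The KO libraries differed from each other in interferon response, with Isg15 at 343 and 101 CPM. Whether a library came from 1 embryo or from a pool is not stated in the labels, and p-values therefore refer only to the variation among these 5 libraries, which may be technical.

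Erythroid markers did not differ past the threshold: 0 of 10 passed in edgeR, with 4 at an unadjusted p under 0.05, and their summed level was 69118 to 85163 CPM in controls and 61979 and 79784 CPM in the KO libraries. Macrophage markers were lower in KO. Of 12 tested, 5 fell (adjusted p below 0.05 in edgeR), and their summed level was 127 to 140 CPM in controls and 94.4 and 99.7 CPM in the KO libraries, with no marker at 0. None of the granulocyte, megakaryocyte and mast cell, hepatocyte, lymphoid or endothelial markers passed, while Cd3e, Cd3d and Fcer1a had 0 counts in every library. In sorted bulk cells, fewer cells of a type and less RNA per cell cannot be told apart, and the part of macrophages in the results below was not tested.

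None of the listed members passed the test between KO and control. The list leaves out other apoptosis genes, Bbc3 and Pmaip1 among them, some of which passed and are given further below. Of the 30, 29 had enough counts to be tested, and 0 of them had an adjusted p below 0.05 in edgeR's quasi-likelihood test, where 6.98% of all 13000 genes tested did (5.15% higher and 1.83% lower in KO) and 7.02% of those with a mean of at least 10 CPM. DESeq2 and limma-voom, which called 6.4% and 6.48% of all genes, also called 0 of the 29. Without the adjustment, 7 of the 29 had a p under 0.05 (24.1%), 4 higher and 3 lower in KO, beside 23.8% of all genes (14.3% higher and 9.48% lower). The fitted fold change was below 1 for 16 of the 29 (55.2%) and for 47.5% of all genes. Both KO libraries lay outside the range of the 3 controls for 13 of the 29 (44.8%), 5 above and 8 below, against 41.2% of all genes (21.9% above and 19.3% below). The median log2 fold change was -0.01 over the members and 0.01 over all genes tested, and its median size was 0.14 over the members and 0.16 over all genes. The count changed when KO replicate 1 was left out: in a fit with a lone KO library that is assumed to vary like the controls, 6 members passed, Bcl2l2 and Dffa upward and Casp2, Casp6, Casp9 and Xiap downward. In that fit 22% of all genes passed. With the replicate number as a block, where 6.72% of all genes passed, 1 member did (Bcl2l2), and with no filter on low counts, where 1.37% passed, 0 did. Without each of the other 4 libraries 0 members passed.

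The 95% intervals, each for a single gene and without adjustment, give the range of fold changes that the fit allowed. They do not mark the limit of a call, which rests on the adjusted p. The interval of Bcl2l2, from 0.18 to 0.90 in log2, left out 0 and the gene was not called. For all 29 members the 95% interval of the fold change lay within 2-fold in either direction, as it did for 88% of all genes, and for 26 it lay within 1.5-fold (89.7%, against 64.7%). The 3 with wider intervals were Bcl2, Bcl2l2 and Cycs, and the value of Cycs cannot be taken as its level. The margins were set after earlier results of these data were known, and the width of an interval depends on a gene's abundance.

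**Figure D1:**
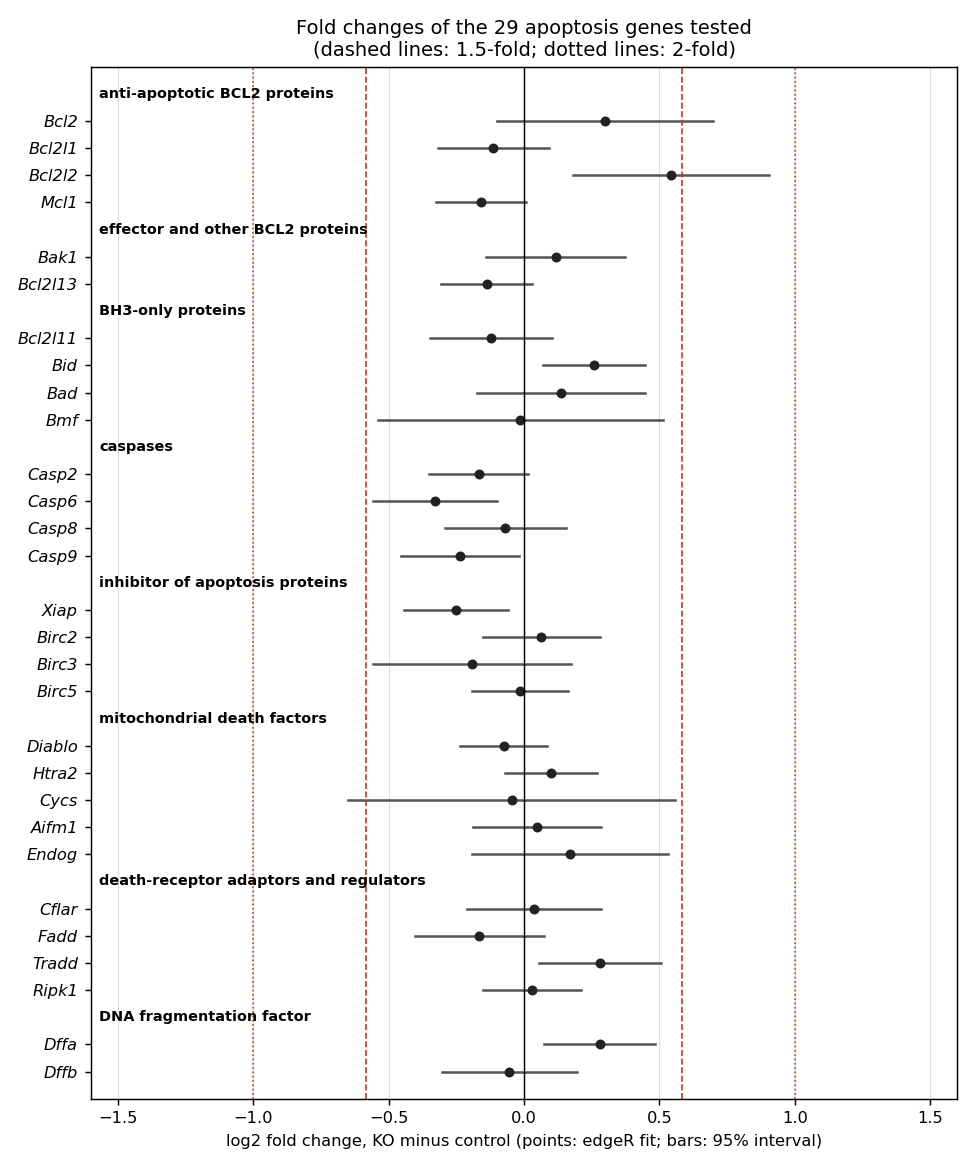
Fold changes of the 29 members tested, ordered by role: each point is the log2 fold change of KO against control in the edgeR fit and each bar its 95% interval, with dashed lines at 1.5-fold and dotted lines at 2-fold. No bar reaches a dotted line, and 3 cross a dashed line (Bcl2, Bcl2l2 and Cycs).

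Levels between genes were compared as CPM per kb of merged exons. In controls they ran from 0.302 for Bmf to 97.8 for Bcl2l1 among the members tested. The highest after Bcl2l1 were Mcl1 at 75.7, Birc5 at 69.6, Htra2 at 66.6 and Bcl2l13 at 40.6 CPM per kb. Birc5 and Htra2, with control SDs of 6.87% and 3.82% of their means, are neighbours in this order that cannot be separated by their spread. The lowest besides Bmf was Bcl2 at 0.318 CPM per kb. Cycs, listed at 0.641 CPM per kb, has no place in this order, since a copy shares its coding sequence. Bik, a BH3-only gene, was not tested: it had 0, 1 and 0 counts in the controls and 0 and 2 in the KO libraries, and a count of 0 allows up to 0.193 to 0.231 CPM, counting error only.

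**Figure D2:**
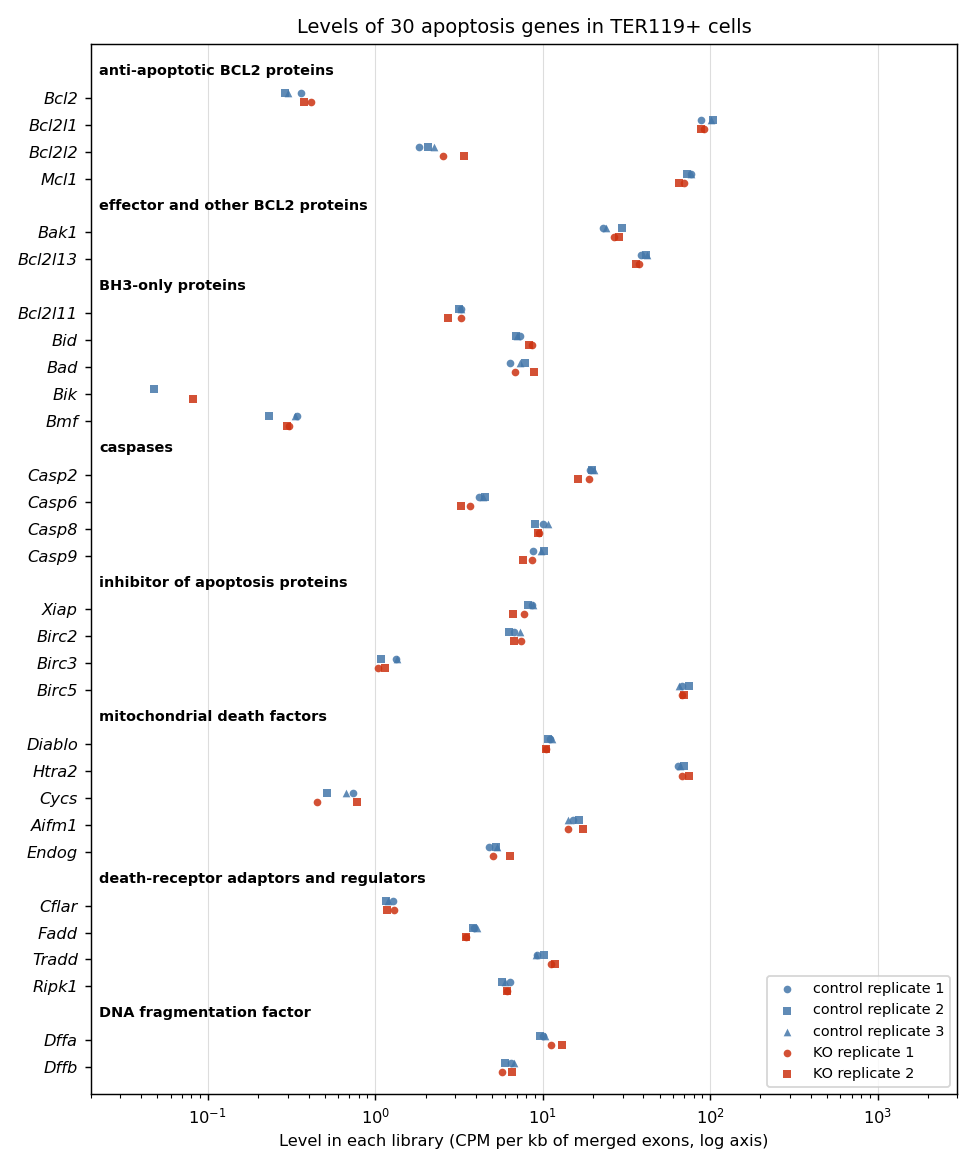
Level of each of the 30 members in each library, as CPM per kb of merged exons on a log axis, with controls in blue, KO libraries in red and marker shapes for the replicate. Libraries at 0 counts (Bik in control replicates 1 and 3 and KO replicate 1) have no point. Bcl2l1, Mcl1, Birc5 and Htra2 are the highest, and the colours lie close together for each gene.

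The survival side of the BCL2 family was carried by Bcl2l1 and Mcl1. Bcl2l1 (ENSMUSG00000007659, minus strand of chromosome 2, 152780668 to 152831728, build mm10) stood at 405, 477 and 465 CPM in controls and at 424 and 405 CPM in KO. The KO values lay within the control range, and the fitted log2 difference of -0.11 ± 0.09 (SE) had a 95% interval from -0.32 to 0.09 (edgeR adjusted p = 0.49). Counts cover the whole gene, so the long survival form and the short death-promoting form of its transcript are not separated. Bcl2l1 held 55.6% of the summed CPM per kb of the 4 survival genes in controls and 56% in KO.

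Of the 3 promoter windows of Bcl2l1 in the RefSeq table (build GRCm38.p6, 250 bases before to 50 after a start site), 1 holds motifs of the GATA family, whose member GATA1 drives red cell maturation. It is printed because Bcl2l1 is the most abundant member, with the motifs in capitals, on the minus strand at chr2:152828440-152828739.
Bcl2l1: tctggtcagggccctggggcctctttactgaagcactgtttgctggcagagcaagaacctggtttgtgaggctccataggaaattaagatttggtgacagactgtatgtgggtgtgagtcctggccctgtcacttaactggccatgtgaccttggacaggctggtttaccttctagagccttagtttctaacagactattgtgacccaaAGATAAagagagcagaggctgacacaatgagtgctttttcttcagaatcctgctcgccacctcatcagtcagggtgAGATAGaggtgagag
The search took AGATAA as well as AGATAG, and TGATAA as well as TGATAG, on both strands, and none of these contains another. Of the 30 members 27 matched the table, and 8 of these (29.6%) held a motif in some window, against 33% of all genes in it. By windows, 8 of 37 (21.6%) held one, against 29.8% of all windows. Among the members with a motif were Bid, Casp8, Casp9 and Xiap. A match is a string of letters and shows no binding, and the counts do not say which start site was used.

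Mcl1, a short-lived survival protein gene, stood at 265, 248 and 264 CPM in controls and at 240 and 224 CPM in KO. Both KO libraries were below all controls, by a log2 fold change of -0.16 ± 0.07 that missed the threshold (edgeR adjusted p = 0.22). Bcl2l2, which encodes the survival protein BCL-W, stood at 8.11, 9.22 and 10.1 CPM in controls and at 11.3 and 15.2 CPM in KO. Its KO libraries lay above the controls and apart from each other. The log2 fold change of 0.54 ± 0.16 was the largest in size among the members tested, with the smallest adjusted p (edgeR, 0.078). Bcl2l2 shares 13.3% of its exonic bases with Gm20521 on the same strand, where strand cannot tell their reads apart. Without KO replicate 1 it was 0.71 (adjusted p = 0.013), and without KO replicate 2 it was 0.31 (0.40). Bcl2, the founding member of the family, was low, at 2.67 to 3.28 CPM in controls and 3.43 and 3.77 CPM in KO.

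Bak1 and Bcl2l13 represent the other multi-domain BCL2 proteins. Bak1, for the pore-forming protein BAK, stood at 55.1, 71.8 and 57.6 CPM in controls and at 64.6 and 68.4 CPM in KO, so the groups overlapped (log2 fold change 0.12 ± 0.11). It shares 18.2% of its exonic bases with Ggnbp1 on the opposite strand. It lies on chromosome 17, the chromosome of Csnk2b, at a distance of 8.09 Mb. Bcl2l13, for a mitochondrial outer membrane protein linked to the removal of mitochondria, stood at 353, 375 and 380 CPM in controls and at 342 and 329 CPM in KO. Its KO libraries lay below the controls at a log2 difference of -0.14 ± 0.07 (edgeR adjusted p = 0.30).

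Among the BH3-only genes, Bid had the highest level per length over the 5 libraries, though in controls Bid and Bad were level, at 7.08 and 7.17 CPM per kb. BID is cut by caspase 8 and carries a receptor signal to mitochondria. Bid (ENSMUSG00000004446, minus strand of chromosome 6, 120891930 to 120916853, mm10) stood at 25.9, 24.6 and 24.9 CPM in controls and at 30.7 and 29.5 CPM in KO. The KO libraries were above the controls, with a log2 fold change of 0.26 ± 0.08 that missed the threshold (edgeR adjusted p = 0.099, unadjusted p = 0.013). Bid and Bcl2l13 meet tail to tail and share 628 exonic bases, 17.7% of the merged exons of Bid. The sources used here do not say whether strand was used in counting, so reads from these bases may have counted for the wrong gene or for neither.

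Bcl2l11, which encodes BIM, the BH3-only protein controlled by growth factor withdrawal, stood at 26.1, 25.5 and 26.3 CPM in controls and at 26 and 21.8 CPM in KO. The groups overlapped (log2 fold change -0.12 ± 0.10). Bad, whose product is silenced by phosphorylation and which shares 20.5% of its exonic bases with Gpr137 on the opposite strand, gave overlapping groups too, at 16.3 to 20.0 CPM in controls and 17.5 and 22.6 CPM in KO. Bmf, whose product is tied to the cytoskeleton, was at 1.22 to 1.80 CPM in controls and 1.61 and 1.56 CPM in KO. Summed as CPM per kb, the 4 survival genes stood at 9.72, 9.83 and 10.1 times the 5 BH3-only members in controls and at 8.70 and 7.78 times in KO. This ratio was formed after the values were seen, is a description with no test, and rests on genes none of which passed.

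All 4 caspase genes had a fold change below 1 in KO, as did 47.5% of all genes. For 3 of them both KO libraries lay below all controls, as for 19.3% of all genes, and none of the 4 passed. Casp2, for the initiator caspase of the PIDDosome, was the most abundant per length and stood at 136, 139 and 143 CPM in controls and at 133 and 115 CPM in KO (log2 fold change -0.17 ± 0.08, edgeR adjusted p = 0.24). Casp6, for an executioner caspase, stood at 23.2, 25.5 and 24.5 CPM in controls and at 20.7 and 18.1 CPM in KO. Its log2 fold change of -0.33 ± 0.10 was the lowest among the members (edgeR adjusted p = 0.087). Casp9, for the initiator caspase of the mitochondrial route, stood at 45.4, 53.0 and 50.8 CPM in controls and at 44.9 and 39.7 CPM in KO (-0.24 ± 0.10, edgeR adjusted p = 0.18). KO replicate 1 was just under the lowest control. Casp8, for the initiator of the receptor route, overlapped between groups, at 25.9 to 31.1 CPM in controls and 27.4 and 27.2 CPM in KO. Sizes depended on the KO library kept. For Casp2, Casp6, Casp8 and Casp9 the log2 fold changes were -0.07, -0.24, -0.07 and -0.15 without KO replicate 2. Without KO replicate 1 they were -0.30, -0.45, -0.10 and -0.35.

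The inhibitor of apoptosis genes fell into an abundant cell division gene and 3 less abundant caspase and ubiquitin regulators. Birc5 encodes survivin, a part of the chromosomal passenger complex of mitosis. It stood at 233, 255 and 223 CPM in controls and at 231 and 239 CPM in KO, and the log2 fold change of -0.01 ± 0.08 had a 95% interval from -0.19 to 0.16. Xiap, whose product binds and blocks caspases directly, stood at 82.4, 77.7 and 83.2 CPM in controls and at 73.1 and 63.2 CPM in KO. Both KO libraries were below the controls, at a log2 difference of -0.25 ± 0.08 (edgeR adjusted p = 0.11). Birc2 and Birc3, for the ubiquitin ligases cIAP1 and cIAP2 of TNF receptor complexes, overlapped between groups. Birc2 stood at 29 to 33.4 CPM in controls and 34.1 and 30.8 CPM in KO, and Birc3 at 5.41 to 6.80 CPM and 5.23 and 5.77 CPM.

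Of the mitochondrial death factors other than Cycs, whose level is not known, Htra2 was listed with the most CPM per kb, a value that may include reads of overlapping genes. Htra2 and Diablo (SMAC) encode antagonists of the caspase inhibitors. Htra2 stood at 190, 205 and 194 CPM in controls and at 199 and 221 CPM in KO, with overlapping groups (log2 fold change 0.10 ± 0.08). It shares 753 exonic bases with Aup1 and 535 with Loxl3, both on the opposite strand. Diablo stood at 66.2 to 69.8 CPM in controls and at 64.6 and 64.5 CPM in KO (log2 fold change -0.07 ± 0.07). It shares 21.5% of its exonic bases with B3gnt4 on the opposite strand and 19.3% with Gm49027 on the same strand. Aifm1, for a flavoprotein that moves to the nucleus in dying cells, stood at 56.7 to 65.8 CPM in controls and 56.7 and 69.4 CPM in KO. Endog, for a mitochondrial nuclease, stood at 5.08 to 5.69 CPM and 5.38 and 6.80 CPM, and shares 35.7% of its exonic bases with Spout1 on the opposite strand.

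Cycs, which encodes cytochrome c, was listed at 20 to 41 counts per library, a value that cannot be taken as its level. Its coding sequence of 315 bases is identical to that of the copy Gm10053 on chromosome 19, and 26.1% of its transcript words of 50 bases occur in transcripts of other genes. The first 90 coding bases, the same in both genes, are printed 5′ to 3′ to show this identity, with the start codon in capitals.
Cycs and Gm10053: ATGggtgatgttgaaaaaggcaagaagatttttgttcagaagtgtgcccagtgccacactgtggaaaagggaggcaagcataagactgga
The copy was listed at 78 to 135 counts, more than Cycs in every library. The sources used here do not say how reads that fit several places were treated. Cycs had a log2 fold change of -0.04 ± 0.27 and a 95% interval from -0.65 to 0.56, the widest among the members.

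The death-receptor adaptors also gave no call. Tradd, for the adaptor of the TNF receptor, had the highest level per length in this group and stood at 17.3, 19.1 and 16.9 CPM in controls and at 21 and 22.1 CPM in KO. The KO libraries were above the controls, at a log2 difference of 0.28 ± 0.10 (edgeR adjusted p = 0.13). Fadd, for the adaptor that recruits caspase 8, stood at 15.2, 14.9 and 15.7 CPM in controls and at 13.6 and 13.7 CPM in KO. Its KO libraries were below the controls (-0.16 ± 0.10). Ripk1, for a kinase that directs TNF receptor signals to survival or death, stood at 47.4 to 53.1 CPM in controls and 51.0 and 51.3 CPM in KO. Cflar, for the caspase 8 inhibitor cFLIP, stood at 14.6 to 16.1 CPM and 16.4 and 15 CPM.

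At the end of the cascade, DFFB is the nuclease that cuts DNA between nucleosomes and DFFA its inhibitor and chaperone. Dffa stood at 35.6, 33.9 and 36.4 CPM in controls and at 39.6 and 46.1 CPM in KO. Both KO libraries were above the controls, with a log2 fold change of 0.28 ± 0.09 that missed the threshold (edgeR adjusted p = 0.10). Dffb overlapped between groups, at 17.1 to 19.3 CPM in controls and 16.4 and 18.9 CPM in KO.

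Genes of the same pathway outside these 30 were read from a list of 60, drawn from general knowledge and including targets of p53, whose rise in these data was already known. Of 43 tested, 9 rose and 3 fell (27.9% called, against 6.98% of all genes), and 31 did not pass. The median log2 fold change was 0.08. Bbc3 encodes PUMA, a BH3-only protein switched on by p53. It stood at 3.80, 4.57 and 4.09 CPM in controls and at 13.1 and 10.3 CPM in KO, a 2.81-fold rise (edgeR adjusted p = 0.0017). Pmaip1 (NOXA), another p53-driven BH3-only gene, stood at 3.15, 2.29 and 2.84 CPM in controls and 5.07 and 5.25 CPM in KO, a 1.86-fold rise (edgeR adjusted p = 0.019). Bnip3, a BH3-like gene of hypoxia and mitophagy, rose 2.18-fold (edgeR adjusted p = 0.035). Bnip3 stood at 5.85, 9.07 and 5.83 CPM in controls and at 10.8 and 19.0 CPM in KO. It shares 36.95% of its transcript words with other genes and 22.3% of its exonic bases with Gm45507 on the opposite strand. Its values may therefore include or lack reads from these parts, which was not tested. Bax, the pore-forming partner of Bak1, missed the threshold, at 23.7 to 31.8 CPM in controls and 32.0 and 44.4 CPM in KO (log2 fold change 0.54 ± 0.16, edgeR adjusted p = 0.087).

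Along the receptor route, Tnfrsf10b, for the TRAIL receptor, stood at 1.54, 1.07 and 1.46 CPM in controls and at 4.07 and 3.82 CPM in KO, a 2.87-fold rise (edgeR adjusted p = 0.0032). Fas, another death receptor gene, had 1 or 2 counts in every library and was not tested. Rnf31, for a subunit of the linear ubiquitin ligase at TNF receptors, rose 1.38-fold, and Ikbkg, for the regulatory subunit of the IKK kinase, had a log2 fold change of -0.29 ± 0.07 and fell (edgeR adjusted p = 0.037). Daxx, for a FAS-binding chromatin protein, rose 1.32-fold (edgeR adjusted p = 0.037). It lies 1.20 Mb from Csnk2b, and 19.4% of the 165 genes tested within 5 Mb of Csnk2b passed.

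Naip2, of the inhibitor of apoptosis family and a sensor of bacterial protein in macrophages, fell to 22.4 and 20.9 CPM in KO from 27.7 to 33.1 CPM in controls (edgeR adjusted p = 0.021), in the same libraries in which macrophage markers were lower. It shares 19.1% of its transcript words with other genes, other Naip copies among them. Xaf1, an antagonist of XIAP induced by interferon, stood at 0.38 to 0.58 CPM in controls and at 19.4 and 1.43 CPM in KO (edgeR adjusted p = 0.035). Its KO libraries differed in the same order as Isg15. Aen, for a nuclease induced by p53, rose 1.59-fold (edgeR adjusted p = 0.0053), and Aifm2, a p53-responsive relative of Aifm1, rose 1.6-fold (0.036).

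Of these 12 calls, Bbc3, Tnfrsf10b and Aen held in every alternative that tested them. The number of calls was 3, 4 and 4 without control replicate 1, 2 and 3, and 15 and 8 without KO replicate 1 and 2. Pmaip1, Bnip3, Xaf1, Daxx, Ikbkg and Aifm2 missed the threshold without any 1 control, Naip2 without control replicate 1 or 3 and Rnf31 without control replicate 1 or 2. Daxx also missed it without KO replicate 1, and Pmaip1, Bnip3, Naip2 and Aifm2 without KO replicate 2. With DESeq2, Pmaip1 and Aifm2 missed the threshold (adjusted p = 0.076 and 0.24), and with limma-voom Xaf1 did (0.14). Xaf1 had a log2 fold change of 4.36 with all libraries but 1.51 when KO replicate 1 was left out. For Bnip3 it went from 1.13 to 0.65 without KO replicate 2, and for Daxx from 0.40 to 0.24 without KO replicate 1.

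**Figure D3:**
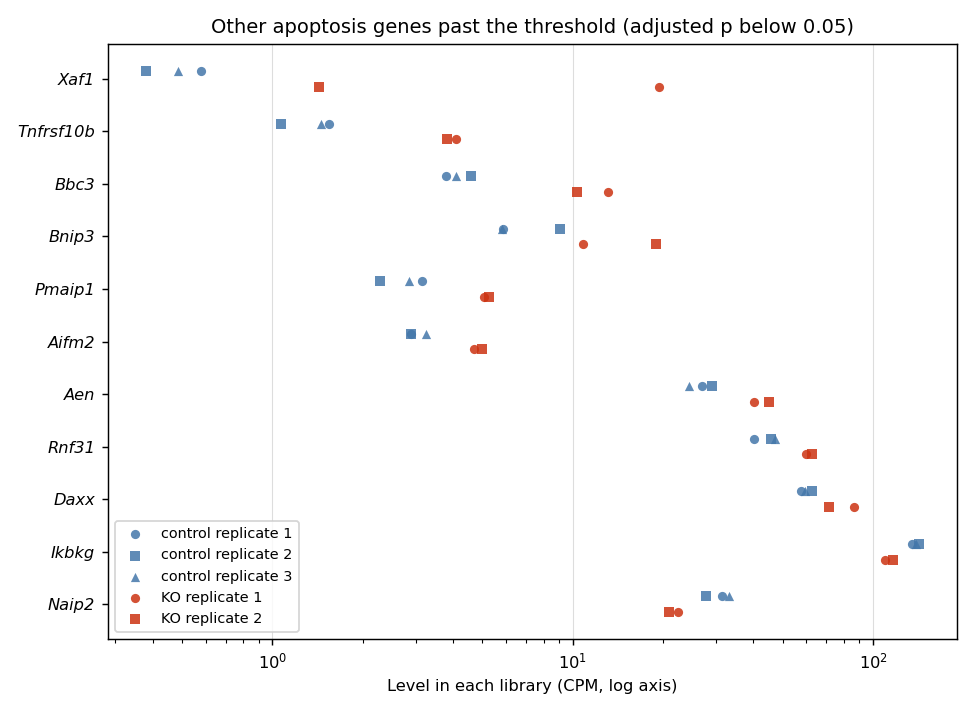
The 11 other pathway genes reported past the threshold, as CPM in each library on a log axis, with controls in blue, KO libraries in red and marker shapes for the replicate. KO libraries lie to the right of all controls for 9 genes and to the left for Ikbkg and Naip2, and the KO libraries of Xaf1 lie far apart at 19.4 and 1.43 CPM.

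**Figure D4:**
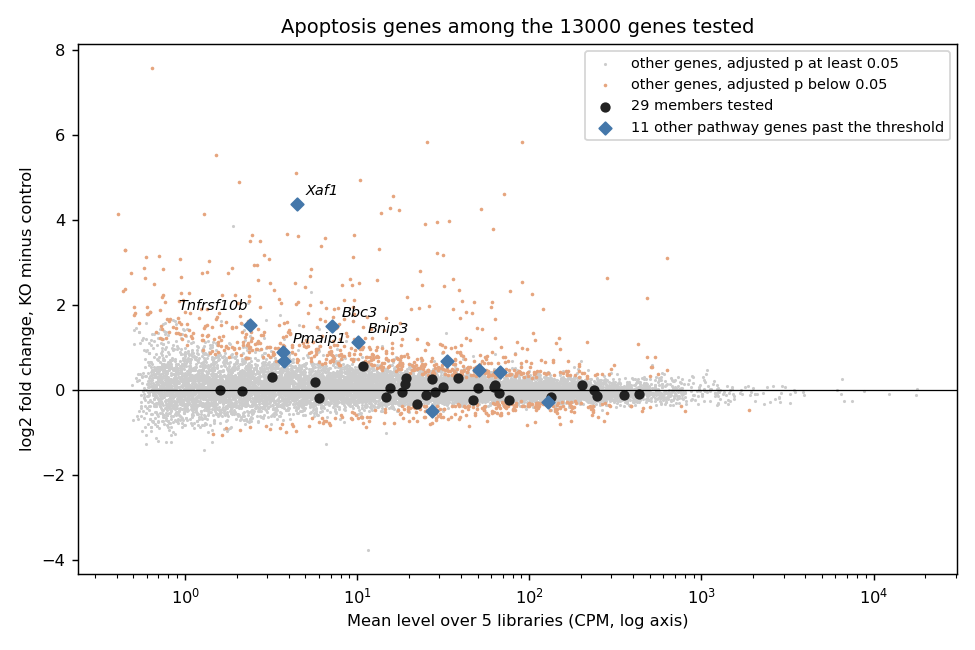
Log2 fold change against mean CPM (log axis) for the 13000 genes tested, with genes past the threshold in orange, the 29 members as black circles and 11 other pathway genes past the threshold as blue diamonds. The members lie between -0.33 and 0.54 across the range of abundance.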

How the data were processed

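TER119+ fetal liver cells were sorted and their poly(A) RNA was sequenced on the Ion Proton platform, per the labels' protocols. The submitters' processing notes name cutadapt, STAR, Bowtie, HTSeq and build mm10. The sources used here do not give versions, strand or the treatment of multi-mapping reads. Deposited values are whole-number counts per gene, with no scaling by the authors. Symbols, positions and exon lengths came from GENCODE M21 (GRCm38), which matched 37693 of the 39179 identifiers, and promoters from RefSeq.

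The count table was fitted with edgeR 4.0.16 in R 4.3.3 (quasi-likelihood test, TMM scaling, filterByExpr, group as the only term). P-values were adjusted by Benjamini-Hochberg over the 13000 genes that passed the filter, and the threshold was 0.05. Standard errors and 95% intervals came from the fold change, the F statistic and its degrees of freedom. The steps were tested on simulated data. Fits were repeated with RLE scaling, with globin and mitochondrial genes removed, with DESeq2 1.42.0, with limma-voom 3.58.1, with other filters, with a replicate block and without each library. The members and gene lists were chosen with earlier results of these data known.

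Values in every library were given for the most abundant member of each role, since no member passed. Pathway genes past the threshold were named (up to 4 a class), some with a range or a fold change in place of every value. Other members given in full, Eif2s3y, Xist, Bax, Fas and Gm10053 were chosen after their values were seen. Of the other pathway genes past the threshold, 1 is counted but not reported here.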

Additional observations from a re-analysis of the deposited data

How the results depend on the processing

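Over 12 alternatives, 19 of the 29 members tested kept their direction in every fit that held them. The other 10, none past 0.17 in size, changed sign in some of the fits, with 17 reversed values in all. The log2 fold change of Bmf was 0.0092 with limma-voom and 0.072 with the replicate block, and that of Aifm1 was -0.0105 with the block. Leaving out each library in turn gave ranges that crossed 0: -0.0668 to 0.2835 for Bad, -0.1601 to 0.09 for Bmf, -0.0314 to 0.1319 for Birc2, -0.0556 to 0.0411 for Birc5 and -0.5204 to 0.2484 for Cycs. The same ranges were -0.1108 to 0.1625 for Aifm1, -0.0197 to 0.301 for Endog, -0.0533 to 0.1001 for Cflar, -0.0091 to 0.0739 for Ripk1 and -0.1665 to 0.0179 for Dffb. The cause was not tested. The replicate block called 1 member, Bcl2l2 (log2 fold change 0.60, edgeR adjusted p = 0.039), 9 other pathway genes and 873 of all genes. Daxx, Ikbkg and Aifm2 missed the threshold with the block (edgeR adjusted p = 0.057, 0.11 and 0.068). The replicate numbers were not shown to pair the samples, and correlations of deviations from the group means cannot decide it. With 2 KO libraries the deviations of 1 mirror those of the other. Same-numbered libraries correlated at 0.0096 and 0.056 over 2 pairs, and control replicate 3 with KO replicate 1 at 0.051. Leaving out 1 library gave 0 to 6 members, 3 to 15 other pathway genes and 241 to 2956 of all genes past the threshold, where 907 passed with all 5. The 6 came without KO replicate 1. Without a filter on low counts, 288 of all genes and 3 other pathway genes passed (Bbc3, Tnfrsf10b and Aen). RLE scaling moved the median of all genes by -0.01. With 5 libraries, small differences in genes of few counts such as Bcl2, Bmf and Cycs were not detectable.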

Other observations

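The KO libraries differed from each other among the members by a median size of the log2 difference of 0.13, against 0.17 over all genes tested, and KO replicate 1 was the higher for 15 of the 29 members and for 6420 of the 13000 genes tested. Casp2, Casp6, Casp9 and Xiap were higher in KO replicate 1, and Casp8 was at 27.4 and 27.2 CPM. Of the 5 mitochondrial death factors, Htra2, Cycs, Aifm1 and Endog were higher in KO replicate 2 and Diablo was at 64.6 and 64.5 CPM. Among markers, KO replicate 1 was the higher for 10 of 10 erythroid, 9 of 9 granulocyte, 10 of 12 macrophage, 3 of 5 megakaryocyte and mast cell and 3 of 4 lymphoid genes tested. KO replicate 2 was the higher for 6 of 6 endothelial and 6 of 8 hepatocyte genes. These are values of 2 libraries, with no test, and their causes were not tested.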
